A study of Mus musculus with 12 samples.

Results

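The CREB/ATF factors and their Crtc coactivators were examined as a group of 9 listed genes, *Creb1*, *Atf1*, *Crem*, *Atf2*, *Atf3*, *Atf4*, *Crtc1*, *Crtc2* and *Crtc3*, of 55413 genes annotated on the chromosomes used. The genes were listed by name, with no threshold on a value, although earlier results of these data were known. Acetylation of histone H4 at lysine 12 (H4K12ac) was measured by ChIP-Seq in neuronal nuclei of the whole mouse hippocampus, and the peaks of each library were read around the annotated 5′ end of each gene (the TSS), around the TSSs of alternative transcripts and in the gene body. The series holds 12 libraries, of which 10 have peak lists, 5 from *Tip60* cKO mice and 5 from controls.

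*Tip60* cKO mice had both *Tip60* alleles floxed and were hemizygous for the CaMKCreERT2 driver. Controls carried the same floxed alleles without the driver. All mice of both genotypes had received tamoxifen and were taken at day 10 after the last injection, at an age of 3 months by the labels. *Tip60* encodes an acetyltransferase of histone H4. The driver acts in excitatory neurons of the forebrain, so that interneurons among the sorted nuclei keep TIP60, and the lists average over both. Less acetylation per nucleus and fewer acetylated nuclei cannot be told apart in such samples. Input chromatin was pooled to 1 library per genotype, and all lists of a genotype were called against it, so that genotype and input cannot be told apart. Labels and paper give different strains (C57BL/6J and C57BL/6N) and sexes.

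Between 22864189 and 37923809 tags per library gave 64245 to 136409 peaks, the fewest in *Tip60* cKO library 5. Of 10 neuronal marker genes, 8 to 9 had a TSS peak in each list, and *Gad1* had none in any list. None of 4 microglial markers had a TSS peak in any list, while 0 to 2 of 4 astrocyte markers, 1 to 2 of 4 oligodendrocyte markers and 0 to 1 of 3 endothelial markers did.

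CREB1, ATF1 and CREM are closely related basic leucine zipper proteins that bind the cAMP response element (CRE) and are switched on by phosphorylation after synaptic activity raises calcium or cAMP. CRTC proteins are held in the cytoplasm while phosphorylated, enter the nucleus upon activity and act as coactivators of CREB. In the hippocampus this pathway is known for its role in long-term memory, whereas ATF4 translates cellular stress into transcription and ATF2 and ATF3 pair with other leucine zipper proteins.

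Each gene received a TSS rank score in each library, the percent rank, among all annotated genes, of the peak with the highest fold enrichment within 2 kb of the TSS. A score of 0 means no peak and 100 the strongest. The extent of the signal was measured as TSS coverage, the percent of this 4-kb window that lies under peaks. Genotypes were compared with limma over the 21672 genes with a TSS peak in at least 2 lists, and each member also by exact permutation (two-sided, 252 assignments of the mice), which cannot give a p below 0.00794. After adjustment over all features this lowest p did not pass 0.05 in any measure below, so that a count of 0 by the adjusted permutation test reflects the number of mice and says nothing about the calls. Nothing in the labels states more than that the mice are separate replicates of a genotype.

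Of the 9 genes, 8 had a TSS peak in at least 2 lists. In controls *Atf4* had the highest mean TSS rank score (97.2 ± 1.28, SD, n = 5), followed by *Crtc3* (96.1 ± 6.67), *Atf1* (95.4 ± 3.79), *Creb1* (94.8 ± 2.22), *Atf2* (94.5 ± 2.30), *Crtc2* (91.1 ± 4.92), *Crtc1* (86.6 ± 3.20) and *Crem* (78.5 ± 4.39). *Atf3* had no peak at its annotated 5′ end in any of the 10 lists. From *Atf4* down to *Atf2* neighbouring genes differed by 0.27 to 1.07 in rank score, less than the spread of that difference between mice, and *Atf4* exceeded *Crtc3* in 1 of 5 control lists, the mean of *Crtc3* being lowered by control library 5. *Atf2* exceeded *Crtc2*, and *Crtc2* exceeded *Crtc1*, in 4 of 5 control lists. *Crtc1* exceeded *Crem* in 5 of 5. The control median over the 8 tested members was 94.6, against 80.7 over all genes tested, and 7 of the 8 lay above the latter.

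None of the 8 tested members was called at an adjusted p below 0.05 in the TSS rank score (limma), against a background of 0.235% of all genes tested. At an unadjusted p below 0.05 there was 1 of 8, against 11.8% of all genes, and the exact permutation test with adjustment over all genes called 0. The score had a lower mean in *Tip60* cKO in 7 of 8 members, against 55.6% of all genes, and the median difference was -3.50 over the members and -0.69 over all genes. For no member were the genotypes separated without overlap, which held for 3.55% of all genes.

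**Figure D1:**
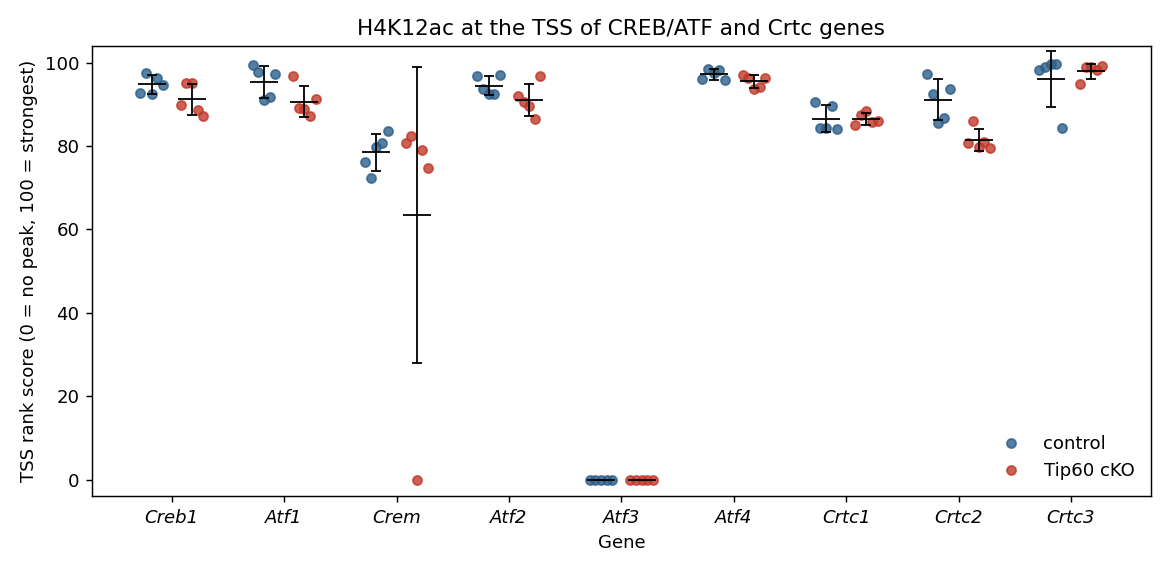
TSS rank score of the 9 genes (vertical axis, 0 is no peak and 100 the strongest TSS of the library) in 5 control (blue) and 5 *Tip60* cKO (red) libraries, 1 point per library, with the mean and SD in black. All members but *Atf3* lie high on the scale in both genotypes, *Crtc2* is lower in most *Tip60* cKO libraries, and the wide SD of *Crem* comes from 1 library without a peak.

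Among the CRE-binding factors, *Creb1*, which encodes the founding member of the family, had TSS rank scores of 92.8, 97.6, 92.5, 96.4 and 94.6 in control libraries 1 to 5 and 89.9, 95.1, 95.1, 88.7 and 87.2 in *Tip60* cKO libraries 1 to 5. The lower 3 *Tip60* cKO values lay below all controls and the other two lay among them. The difference was -3.59 (SE 2.23, limma adjusted p = 0.545, exact permutation p = 0.111).

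*Atf1*, whose product forms dimers with CREB1, scored 99.3, 97.7, 90.9, 91.8 and 97.2 in controls and 96.8, 89.1, 88.9, 87.3 and 91.3 in *Tip60* cKO. Of the *Tip60* cKO libraries, 3 lay below every control. The difference was -4.72 (SE 2.58, limma adjusted p = 0.503, exact permutation p = 0.0635).

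*Crem* gives rise to activators and repressors of CRE-dependent transcription from different promoters and exons. Its 5′ end scored 76.2, 72.2, 79.8, 80.7 and 83.7 in controls and 80.7, 82.5, 0, 79.1 and 74.8 in *Tip60* cKO. Apart from *Tip60* cKO library 3, which had no peak there, the genotypes overlapped fully. The difference of -15.1 (SE 15.0, limma adjusted p = 0.708) rested on that library and was 0.74 without it.

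*Atf2* scored 96.9, 93.7, 92.5, 92.4 and 97.0 in controls and 92.1, 90.6, 89.6, 86.4 and 96.8 in *Tip60* cKO, with 4 of 5 *Tip60* cKO libraries below all controls (difference -3.40, SE 2.28, limma adjusted p = 0.579). With a library left out this difference was -4.82 to -2.24. *Atf4* scored 96.0, 98.6, 97.4, 98.2 and 95.8 in controls and 97.1, 96.2, 93.8, 94.1 and 96.3 in *Tip60* cKO. Its genotypes overlapped and differed by -1.69 (SE 1.55, limma adjusted p = 0.676), and by 0.74 in the opposite direction when peaks were ranked by pileup.

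Among the coactivators, *Crtc2* had the smallest p of the members in this measure. It scored 97.3, 92.5, 85.5, 86.8 and 93.6 in controls and 80.7, 86.0, 79.9, 80.9 and 79.6 in *Tip60* cKO. Only *Tip60* cKO library 2 reached the range of the controls. The difference was -9.75 (SE 2.68, limma unadjusted p = 0.00522, adjusted p = 0.175, exact permutation p = 0.0159), so that it did not pass the threshold over all genes. Within the sequencing lanes it was -9.63 in lane 7 and -9.93 in lane 8. The local background of the input at its strongest peak was within 1 to 1.02 times the genome-wide level in all lists.

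*Crtc1*, the form most abundant in brain, scored 90.5, 84.2, 84.3, 89.7 and 84.2 in controls and 84.9, 87.5, 88.3, 85.7 and 86.0 in *Tip60* cKO, and every *Tip60* cKO value lay within the range of the controls. The difference was -0.07 (SE 1.97, limma adjusted p = 1, exact permutation p = 0.984). *Crtc3* scored 98.2, 98.9, 99.7, 99.7 and 84.3 in controls and 94.8, 98.9, 98.8, 98.3 and 99.1 in *Tip60* cKO. Control library 5 was the lowest of all 10, and the difference of 1.85 (SE 3.18, limma adjusted p = 0.815) became -1.12 without it.

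The genes whose TSS rank scores were most like those of *Crtc2* over the 10 lists, by the mean absolute difference among 21841 protein-coding genes, were *Uso1* (2.69) and the pair *B4gat1* and *AC124502.3* (2.78 each), which share their peaks.

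TSS coverage was lower in *Tip60* cKO for 7 of 8 members, but also for 81.1% of all genes tested. Its mean over all tested windows was 18% ± 3.96 per *Tip60* cKO library and 22.8% ± 2.51 per control library (SD, n = 5), and it follows the number and length of the peaks of a library. The median difference was -9.49 percentage points over the members, whose control median was 38.4%, and -4.01 over all genes, with a control median of 20.2%.

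At an unadjusted p below 0.05, 4 of 8 members differed, against 23.2% of all genes. After adjustment *Atf2* was called (1 of 8 members, against 1.56% of all genes, limma), and the exact permutation test called 0, its lowest p being 0.147 after adjustment over all genes. Its coverage was 47.6, 44.9, 41.6, 38.7 and 38.6% in control libraries 1 to 5 and 28.3, 27.4, 19.9, 29.7 and 21.9% in *Tip60* cKO libraries 1 to 5. All *Tip60* cKO values lay below all controls. The mean fell from 42.3% ± 3.94 to 25.4% ± 4.27 (SD, n = 5, difference -16.8, SE 2.81, limma adjusted p = 0.0203, exact permutation p = 0.00794). When coverage was scaled to the mean of each library, the difference was -8.28 (SE 3.39, limma adjusted p = 0.300), the genotypes overlapped and *Atf2* was not called. Within the sequencing lanes the unscaled difference was -19.5 in lane 7 (libraries 1 to 3) and -12.8 in lane 8 (libraries 4 and 5), and *Atf2* was called in neither (limma adjusted p = 0.166 and 0.378). It was also not called without control library 1, 2 or 5 (limma adjusted p = 0.0544 to 0.0590), with a window of 1 kb on either side of the TSS (0.0753), or with the replicate number as a block (0.0978).

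*Creb1* was the other member without overlap between genotypes, 2 of 8 members with *Tip60* cKO below control, against 5.23% of all genes. Its coverage was 38.2, 40.8, 37.5, 38.7 and 50.3% in controls and 35.8, 28.6, 35.3, 32.1 and 21% in *Tip60* cKO. Control library 5 was the highest and *Tip60* cKO library 5 the lowest. The difference was -10.6 (SE 3.50, limma adjusted p = 0.116, exact permutation p = 0.00794), and -2.15 (adjusted p = 0.749) after scaling to the library mean.

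*Atf4* had a mean coverage of 50.9% ± 8.42 in controls and 37.5% ± 11.2 in *Tip60* cKO (limma adjusted p = 0.176), and *Atf1* 54.1% ± 8.99 and 43.0% ± 7.26 (0.183, SD, n = 5). For *Crtc1* the values were 33.3% ± 7.30 and 24.9% ± 7.68 (0.267) and for *Crtc2* 24.1% ± 5.31 and 16.8% ± 6.00 (0.233). Each of these ranges overlapped. *Crem*, the least covered of the members with a TSS peak, had 12.8% ± 2.05 and 11.3% ± 8.14 (0.829). After scaling to the library mean, which moved the median over all genes from -4.01 to about 0 (-0.0023), *Atf1* and *Crem* were higher in *Tip60* cKO by 1.38 and 1.62 percentage points, *Atf4*, *Crtc1* and *Crtc2* were lower by -3.01, -1.70 and -2.03, and 5 of 8 members remained lower.

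*Crtc3* was the exception among the members. Its coverage was 37.0, 31.9, 39.1, 37.7 and 32.4% in controls and 38.8, 51.7, 39.6, 42.5 and 27.6% in *Tip60* cKO, with the highest and the lowest value both in *Tip60* cKO. The difference was 4.43 (SE 3.88, limma adjusted p = 0.512), and 1.52 to 7.54 with a library left out. After scaling it was 13.9 (SE 4.50, unadjusted p = 0.00914, adjusted p = 0.194).

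**Figure D2:**
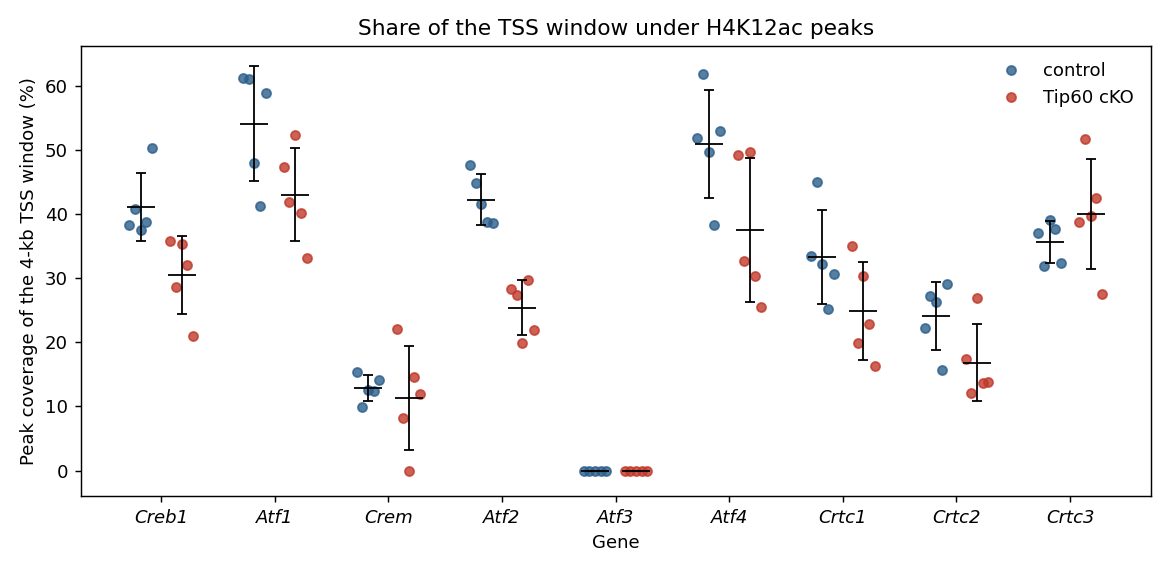
Percent of the 4-kb window around each TSS that lies under H4K12ac peaks (vertical axis) in 5 control (blue) and 5 *Tip60* cKO (red) libraries, 1 point per library, with the mean and SD in black. *Atf2* and *Creb1* show no overlap between genotypes, and *Crtc3* alone has a higher mean in *Tip60* cKO (40.0% against 35.6%).

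**Figure D3:**
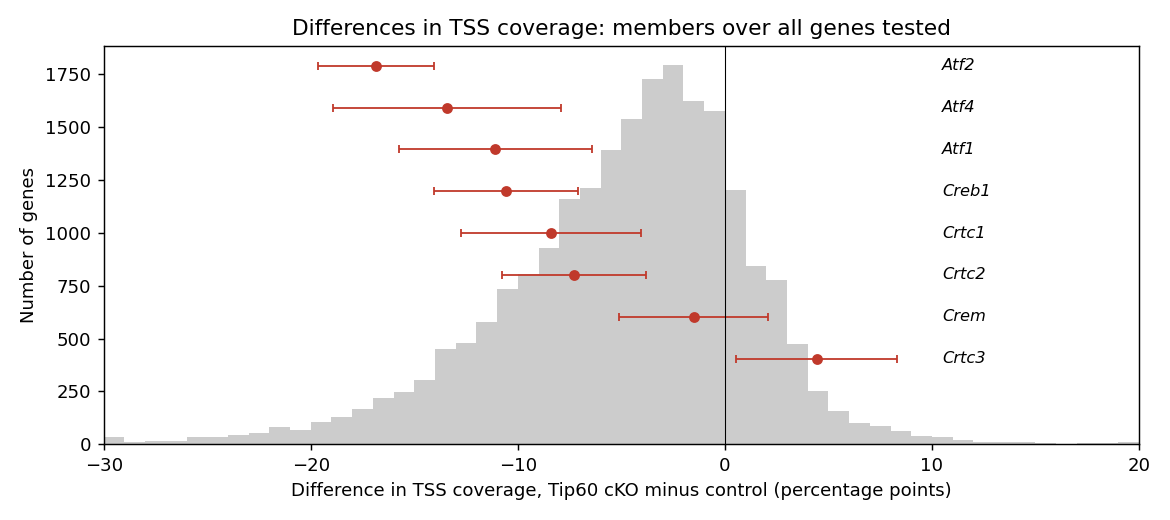
Differences in TSS coverage between genotypes, in percentage points (horizontal axis), as a histogram of the 21672 genes tested (grey, values beyond the axis in the end bins) with each tested member as a red point and its SE as a bar, placed at arbitrary heights. The bulk of all genes lies below 0, *Atf2* (-16.8) lies lowest of the members and *Crtc3* (4.43) highest.

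The position of the peaks around the TSS differed between the members. *Creb1*, *Atf1*, *Atf2*, *Atf4* and *Crtc1* had peaks on both sides of a gap in most lists. At *Atf2* and *Atf4* no list covered the TSS itself, at *Atf1* 1 list and at *Crtc1* 3 lists did, and at *Creb1* the gap lay just after the TSS, which 5 control and 2 *Tip60* cKO lists covered. At *Crem* and *Crtc2* the main peak lay downstream only, with its summit 505 to 846 and 247 to 582 bp after the TSS. *Crtc3* was covered without a gap in all 10 lists by 1 peak of 1104 to 2067 bp, and its RefSeq promoter of 300 bp was covered to 100% in every list.

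The lower coverage of *Atf2* was found mainly upstream. From 2 to 1 kb before its TSS no *Tip60* cKO library had any peak, whereas controls were covered to 32.6% ± 11.6 (SD, n = 5, range 21.7 to 49.7%). This stretch was singled out after its values were seen and had peaks through the controls alone, so that its lack of overlap is a description (2.78% of all genes with peaks there in at least 2 lists had *Tip60* cKO below control without overlap). In the last kb before the TSS coverage was 49.7% ± 13.7 in controls and 25.1% ± 16.4 in *Tip60* cKO, and in the first kb after it 84.9% ± 11.2 and 76.7% ± 11.6. Controls had 3 to 4 peaks in the window and *Tip60* cKO 1 to 2. The upstream flank, at chr2:73892958-73894373 (mm10), is shared with the lincRNA gene *Gm10822*, which starts 357 bp before the *Atf2* TSS on the other strand, and the assay cannot assign it to one of them.

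As 1 consensus region, merged from the peaks of all lists, this flank had a rank score of 86.1 ± 5.50 in controls and 51.7 ± 33.1 in *Tip60* cKO (SD, n = 5, limma unadjusted p = 0.0369, adjusted p = 0.351). The difference at this flank was -34.4, and -44.6 to -21.5 with a library left out. *Tip60* cKO library 3 had no peak there, and library 5 scored 92.2, above every control. The local input background under these peaks was on average 1.63 times the genome-wide level in *Tip60* cKO and 1.17 times in controls. A higher background lowers the fold enrichment of a peak, and its part in this result was not tested. The 300 bp around the median summit of this region are given to show the flank where its peaks were highest, on the *Atf2* strand (chr2:73893007-73893306, GRCm38.p6). They do not reach the part beyond 1 kb where controls alone had peaks, and hold neither of the motifs described next, so that no base is in capitals.
*Atf2* upstream: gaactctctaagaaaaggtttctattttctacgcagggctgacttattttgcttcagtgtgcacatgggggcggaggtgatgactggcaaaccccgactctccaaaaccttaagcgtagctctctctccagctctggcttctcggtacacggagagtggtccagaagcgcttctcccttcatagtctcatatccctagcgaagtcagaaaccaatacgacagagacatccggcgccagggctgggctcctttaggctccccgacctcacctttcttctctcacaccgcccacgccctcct

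An intronic region of *Atf2* at chr2:73867825-73868525, 24.5 kb after the TSS, had the opposite sign. It scored 40.2, 67.2, 58.5, 63.8 and 70.4 in *Tip60* cKO, while controls had no peak except library 5, which scored 72.7, the highest of all. It thus passed the filter of at least 2 lists only through *Tip60* cKO, where it is high, and its p-values support nothing further. The difference was 45.5 (SE 14.7, limma unadjusted p = 0.0115, adjusted p = 0.309, exact permutation p = 0.0476). The local input background under these peaks was 1.61 times the genome-wide level in *Tip60* cKO and 1.46 times in the control, and its part in the result was not tested.

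**Figure D4:**
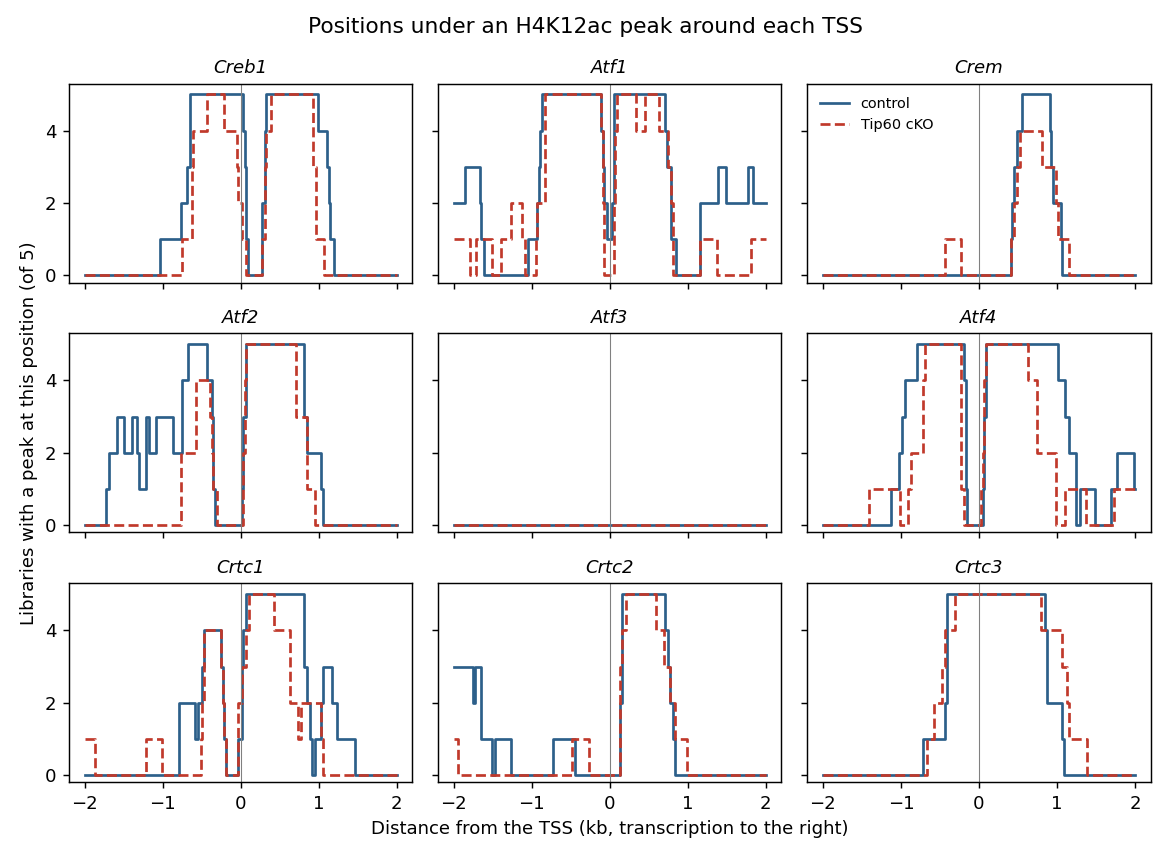
Number of libraries of each genotype (vertical axis, of 5) with a peak at each position within 2 kb of the TSS (horizontal axis, kb, transcription to the right) for controls (blue) and *Tip60* cKO (red, dashed). *Creb1*, *Atf1*, *Atf2*, *Atf4* and *Crtc1* show peaks on both sides of a gap at or near the TSS, the region beyond 1 kb upstream of *Atf2* carries peaks in controls alone, and *Atf3* has none.

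CREB factors are known to act on promoters of their own family through the CRE, TGACGTCA, or its core motif TGACG. Both were searched on both strands (the core reads CGTCA on the other strand, and the CRE reads the same on both and contains the core once per strand) in the RefSeq promoters of 300 bases of GRCm38.p6, from 250 bases before to 50 after the start. Of 32851 promoters, 588 (1.79%) held a CRE and 6837 (20.8%) at least 1 core motif. RefSeq promoters were matched for 7 members, *Creb1*, *Atf1*, *Atf2*, *Atf3*, *Atf4*, *Crtc1* and *Crtc3*. None of the 7 held a CRE in this window, and 3, those of *Atf1*, *Atf3* and *Atf4*, held a core motif. These 3 are shown because they hold a core motif, with the core motifs in capitals.
*Atf1*: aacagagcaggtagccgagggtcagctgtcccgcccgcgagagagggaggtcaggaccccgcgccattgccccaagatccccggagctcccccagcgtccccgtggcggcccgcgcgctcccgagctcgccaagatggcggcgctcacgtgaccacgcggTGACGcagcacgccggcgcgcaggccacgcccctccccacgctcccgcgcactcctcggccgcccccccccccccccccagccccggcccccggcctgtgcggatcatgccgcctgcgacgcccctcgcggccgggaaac
*Atf4*: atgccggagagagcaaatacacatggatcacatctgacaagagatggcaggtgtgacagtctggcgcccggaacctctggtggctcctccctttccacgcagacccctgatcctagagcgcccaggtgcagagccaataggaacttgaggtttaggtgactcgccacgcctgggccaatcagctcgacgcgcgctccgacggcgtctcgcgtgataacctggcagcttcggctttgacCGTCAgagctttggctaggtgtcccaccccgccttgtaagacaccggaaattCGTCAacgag
*Atf3*: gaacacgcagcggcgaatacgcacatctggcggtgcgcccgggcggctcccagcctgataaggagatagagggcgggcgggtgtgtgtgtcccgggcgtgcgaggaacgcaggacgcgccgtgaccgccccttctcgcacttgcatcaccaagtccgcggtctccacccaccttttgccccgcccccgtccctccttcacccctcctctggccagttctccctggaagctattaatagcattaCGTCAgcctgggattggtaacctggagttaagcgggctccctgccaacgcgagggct

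The *Atf1* promoter (chr15:100227609-100227908, + strand) has its core motif at position -90 from the RefSeq start, the first base of the motif being counted, and 50.4% ± 6.31 of its 300 bases lay under peaks in *Tip60* cKO and 67.7% ± 21.8 in controls (SD, n = 5). The *Atf4* promoter (chr15:80254934-80255233, + strand) has core motifs at -12 and 40 and lay in the gap between the flanking peaks. Its coverage, not scaled to the library, was 4 to 19.7% in *Tip60* cKO and 20.3 to 31.7% in controls, without overlap, as in 1 of the 7 members' promoters and 2.48% of all promoters with peaks in at least 2 lists. The *Atf3* promoter (chr1:191183284-191183583, - strand) has its core motif at -7 and lies not at the annotated 5′ end of the gene but 34.7 kb further downstream, where the other 2 of its 3 transcripts start.

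Alternative TSSs were taken as transcript starts more than 2 kb from the 5′ end of the gene. The members had 23, of which 8 had a peak in at least 2 lists. None of these 8 was called (limma, against 0.245% of all 12222 tested), with 1 at an unadjusted p below 0.05 (9.5% of all) and 0 by the exact permutation test with adjustment. The mean was lower in *Tip60* cKO for 8 of 8, against 55.8% of all, but these windows hold few peaks and some share them. Those of *Atf3*, of *Atf1* at 4.34 kb and of *Crtc3* at 89.7 kb passed the filter of at least 2 lists only through controls, where they are high. The count is therefore a description and supports nothing further.

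At this downstream start of *Atf3*, a gene known to be silent in resting neurons and induced by injury, a peak was found in 2 control lists, with rank scores of 71.2 and 81.1, and in no *Tip60* cKO list (exact permutation p = 0.444). The 6 internal starts of *Crem* had no peak in any of the 10 lists, among them the pair 56.0 and 56.6 kb after the 5′ end, near which the activity-induced repressor ICER starts. The only consensus region of *Crem*, just after its 5′ end, overlaps the non-coding gene *Gm6225*, which starts 1068 bp after the *Crem* TSS on the other strand, and the assay cannot assign the peak to one of them.

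The internal TSS of *Crtc1* at chr8:70402798 (36.8 kb after the 5′ end, a non-coding transcript) scored 90.6, 92.3, 88.1, 96.3 and 95.3 in controls and 72.5, 80.8, 76.1, 83.6 and 86.5 in *Tip60* cKO. All *Tip60* cKO values lay below all controls, as at 1.37% of all alternative TSSs. The difference was -12.6 (SE 3.25, limma unadjusted p = 0.00375, adjusted p = 0.191, exact permutation p = 0.00794). The consensus region that holds this TSS, chr8:70399925-70403115, scored 57.4 to 89.8 in *Tip60* cKO and 87.1 to 96.8 in controls, with overlap (limma adjusted p = 0.392). At the other three alternative TSSs with peaks in at least 5 lists, *Crtc1* at 8.29 kb and *Crtc3* at 59.2 and 78.9 kb, peaks were present in 3 of 5 *Tip60* cKO and 4 of 5 control lists each and the ranges overlapped.

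Of the gene bodies, from 2 kb after the TSS to the gene end, those of *Crtc1* and *Crtc3* were the most covered among the members. In *Crtc1* 32.6% ± 7.56 of the gene body lay under peaks in controls and 32.6% ± 8.45 in *Tip60* cKO (SD, n = 5), with 21 to 38 and 24 to 41 peaks. This is the 95.9th percentile of the 12823 gene bodies tested in controls. Single libraries ranged from 19.6 to 41.1% in *Tip60* cKO and from 20.8 to 42.0% in controls, lowest in *Tip60* cKO library 5 and control library 4, which also had the fewest peaks of their genotype genome-wide.

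In *Crtc3* 8.82% ± 2.21 of the body was covered in controls and 7.76% ± 3.05 in *Tip60* cKO. *Atf1* had 2.13% ± 0.79 and 2.21% ± 1.03, *Creb1* 1.05% ± 0.57 and 0.27% ± 0.44, *Atf2* 0.64% ± 0.32 and 0.54% ± 0.28, and *Atf3* 0.25% ± 0.35 and 0%. The bodies of *Crem* (69.7 kb) and *Crtc2* (7.96 kb) had no peak in any list, and *Atf4* is too short to have one by this definition. None of the 6 tested bodies was called (limma, against 0.351% of all) or separated without overlap (4.01% of all). That of *Atf3* was tested only through 2 control lists, where it is high, so that its lack of a call says nothing further. At an unadjusted p below 0.05 there was 1, *Creb1* (p = 0.0471, against 15.7% of all bodies), and the exact permutation test with adjustment called 0.

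The members held 88 consensus regions, each found in 2 or more lists, 32 in *Crtc3*, 30 in *Crtc1*, 8 in *Atf1*, 6 in *Atf2*, 4 in *Creb1*, 3 each in *Atf4* and *Crtc2* and 1 each in *Crem* and *Atf3*. Of these, 19 had a peak in all 10 lists, 6 each in *Crtc1* and *Crtc3*. None was called (limma, against 0.561% of 144701 regions), and the exact permutation test with adjustment also called 0. The limma SE draws on the spread over all regions. At the *Atf4* region 0.763 kb after the TSS it was 4.75, with SDs of 0.65 in *Tip60* cKO and 0.48 in controls. Small differences at regions strong in all lists could therefore hardly be called, and their lack of a call says little. At an unadjusted p below 0.05, 9 regions were lower and 5 higher in *Tip60* cKO, against 8.34% and 3.68% of all regions. Among the higher, those of *Atf2* at 24.5 kb and *Crtc3* at 23.1, 35.9 and 36.8 kb passed the filter of at least 2 lists only through *Tip60* cKO. Among the lower, those of *Atf2* at 32.4 kb, *Crtc1* at 36.0 kb and *Crtc3* at 35.1 and 48.6 kb passed it only through controls. Both counts are therefore a description. A lower mean was found in 44 of 88, against 56.9%, and the median difference was 0.13 over the members' regions and -2.21 over all.

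The region with the highest control mean contained the TSS in *Atf1* and *Crtc3*, had its centre within 1 kb after it in *Creb1*, *Atf2*, *Atf4*, *Crem* and *Crtc2*, and lay near the downstream start in *Atf3*. In *Crtc1* it was an intronic region of 6729 bp at chr8:70415745-70422473, 20.5 kb after the TSS, with a rank score of 97.9 ± 0.91 in controls and 99.3 ± 0.45 in *Tip60* cKO (limma SE 4.76, adjusted p = 0.992, exact permutation p = 0.0159), above that of its own promoter.

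The regions with the smallest p lay in an intron of *Crtc3*, and here *Tip60* cKO was higher. At chr7:80651816-80652397, 36.8 kb after the TSS, rank scores were 79.6, 83.0, 75.4, 59.4 and 79.6 in *Tip60* cKO libraries 1 to 5, while controls had no peak except library 5, which scored 62.4. The difference was 62.9 (SE 12.7, limma unadjusted p = 0.000605, adjusted p = 0.0876, exact permutation p = 0.0159). The neighbouring region at chr7:80652530-80653458 scored 63.6, 82.7, 92.1, 54.0 and 89.8 in *Tip60* cKO, with a peak in control library 1 alone (59.3, limma adjusted p = 0.101, exact permutation p = 0.0159).

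Both regions lie within 1 stretch and are not independent. With 1 control list each, they passed the filter of at least 2 lists only through *Tip60* cKO, where they are high, so that their p-values describe these lists and support nothing further. Neither was called among all consensus regions. The first was called among regions in at least 5 lists (limma adjusted p = 0.0424), a filter that it also passes only through *Tip60* cKO, and the second was not (0.0501). The first was called without control library 5 (limma adjusted p = 0.00117) and the second without control library 1 (0.00377), where in each case the only control with a peak is left out. Under these peaks the local input background was 1.19 and 1.12 times the genome-wide level in *Tip60* cKO and 1.50 and 1.58 times in the control with a peak. The control input was thus higher here, and its part in the result was not tested. The next region of this stretch, at chr7:80653612-80654023, went the other way. It scored 79.5, 70.6 and 52.2 in control libraries 3 to 5 and had no peak in *Tip60* cKO (difference -40.5, limma unadjusted p = 0.0307, adjusted p = 0.351). It passed the filter only through controls, so that its p-values also support nothing further. The 300 bp around the median summit of the first region, on the *Crtc3* strand (chr7:80652058-80652357, GRCm38.p6), are given because this region had the smallest p among the members' regions. They hold no CRE or core motif, which 13.2% of the 300-bp centres of all consensus regions held.
*Crtc3* intron: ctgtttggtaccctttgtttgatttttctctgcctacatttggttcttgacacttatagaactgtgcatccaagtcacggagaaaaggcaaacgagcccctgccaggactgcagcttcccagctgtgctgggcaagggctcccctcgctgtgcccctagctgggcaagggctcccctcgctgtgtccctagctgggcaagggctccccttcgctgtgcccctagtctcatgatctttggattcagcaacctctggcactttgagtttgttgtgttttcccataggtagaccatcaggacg

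A region in an exon and intron of *Crtc3* at chr7:80615830-80616634, 72.6 kb after the TSS, had the opposite sign. It scored 86.3, 75.0, 55.0, 78.1 and 73.2 in controls and 0, 61.1, 0, 64.0 and 0 in *Tip60* cKO (difference -48.5, SE 15.3, limma unadjusted p = 0.0101, adjusted p = 0.281). Its local background was 1.14 and 1.13 times the genome-wide level.

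At *Crtc2*, 2 of the 3 regions were lower in *Tip60* cKO without overlap, the only such regions among the 88 (2 of 88, against 1.34% of all in that direction). The region at chr3:90254291-90255159, just downstream of the TSS, scored 99.1, 97.3, 93.8, 94.4 and 97.5 in controls and 88.6, 92.5, 85.5, 89.0 and 85.4 in *Tip60* cKO (limma SE 4.97, adjusted p = 0.418, exact permutation p = 0.00794). The SE exceeded the SDs of 2.93 in *Tip60* cKO and 2.26 in controls. The same peaks gave the TSS rank score of *Crtc2*, where the genotypes overlapped (86.0 in *Tip60* cKO library 2, 85.5 in control library 3). Both results thus rest on the same peaks, ranked among different features. The region at chr3:90251290-90252655, 2.19 kb upstream and inside the zinc transporter gene *Slc39a1*, scored 68.5 to 83.1 in controls and 63.4, 59.2, 59.2, 61.7 and 0 in *Tip60* cKO (adjusted p = 0.351). It was called when each library was reduced to the same number of strongest peaks (difference -64.5, limma adjusted p = 0.000399), but there no *Tip60* cKO list keeps a peak, so that the region enters through the controls alone and the zeros leave little spread for limma.

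**Figure D5:**
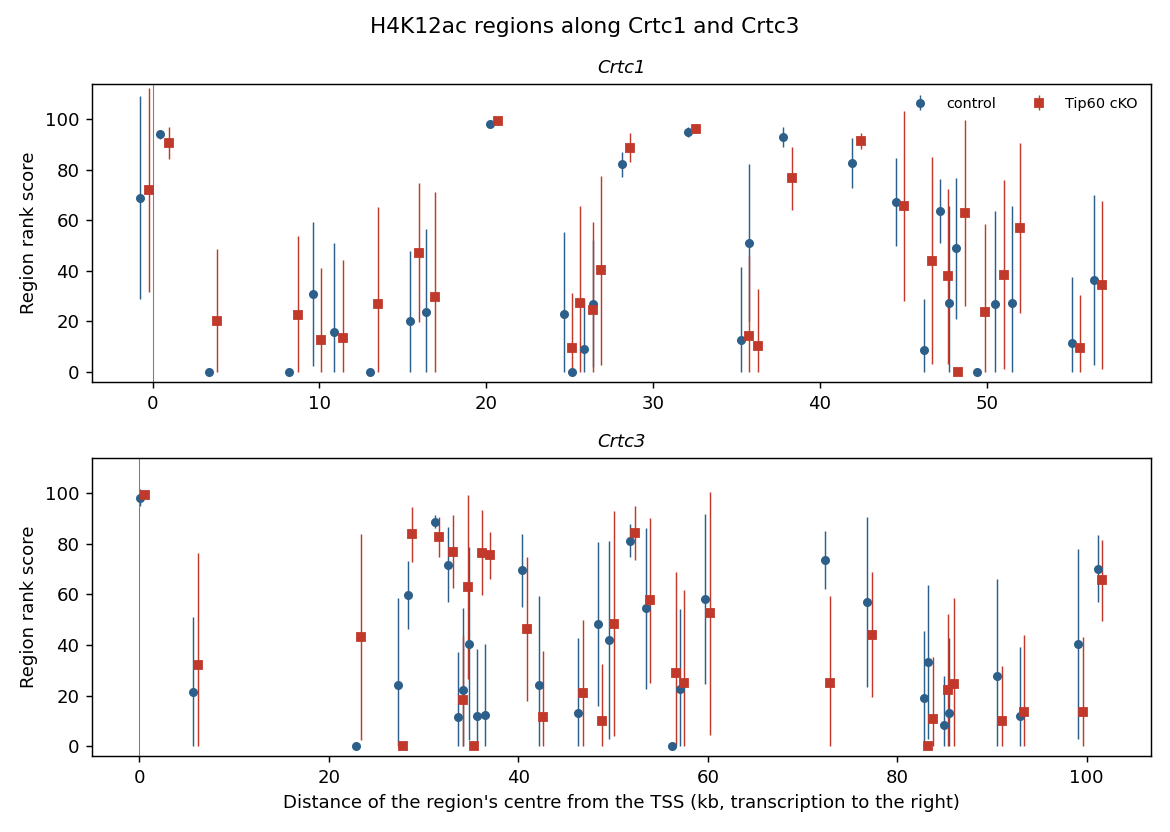
Rank scores of the 30 consensus regions of *Crtc1* and the 32 of *Crtc3* (vertical axis) against the distance of their centre from the TSS (horizontal axis, kb), as mean and SD over 5 control (blue) and 5 *Tip60* cKO (red) libraries, with the groups shifted slightly apart and bars ending at 0. *Crtc1* carries several strong regions far inside the gene, and in *Crtc3* the pair near 36 kb is high in *Tip60* cKO and was found in 1 control library each.

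Other genes of the pathway were taken as 3 lists. Of 23 other CREB/ATF and related leucine zipper genes, 19 were tested and none was called in rank score or coverage (limma), with 2 and 7 at an unadjusted p below 0.05, against 11.8% and 23.2% of all genes. The coverage count includes *Creb3l2*, with a peak in 1 *Tip60* cKO and 4 control lists. It passed the filter of at least 2 lists only through controls, so that this count is a description. Rank scores had a lower mean in *Tip60* cKO in 12 of 19 (median difference -0.91) and coverage in 16 (median -6.64), against 55.6% and 81.1% of all genes. The most negative difference among those with a peak in at least 8 lists was that of *Atf6*, a sensor of stress in the endoplasmic reticulum (77.9 ± 6.39 in controls, 46.2 ± 42.6 in *Tip60* cKO, with no peak in 2 *Tip60* cKO libraries, limma adjusted p = 0.503). Its difference was -0.52 in lane 7 and -78.4 in lane 8, and -20.1 without *Tip60* cKO library 4 or 5. The most positive was that of *Crebl2*, whose score was 81.6 ± 3.63 in controls and 90.2 ± 3.28 in *Tip60* cKO without overlap, as for 3.55% of all genes in either direction (limma adjusted p = 0.189). Its difference of 8.67 was 0.96 when peaks were ranked by pileup.

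Of 34 regulators and cofactors, 32 were tested, with none called in rank score and 2 called in coverage (limma, against 0.235% and 1.56% of all genes), both lower in *Tip60* cKO. At an unadjusted p below 0.05 there were 3 in rank score and 12 in coverage, against 11.8% and 23.2% of all genes, and the mean was lower in 21 and 31 of 32, against 55.6% and 81.1%. The 2 called were *Sik2*, a kinase that holds CRTC proteins in the cytoplasm (30.9% ± 2.96 in controls, 15.9% ± 2.30 in *Tip60* cKO, limma adjusted p = 0.0169), and *Trib3*, a pseudokinase that is induced by and inhibits ATF4 (35.7% ± 4.01 and 17.4% ± 8.43, 0.0442). Neither was called after scaling to the library mean (limma adjusted p = 0.0971 and 0.181) or within a lane, and with the replicate number as a block neither was called (0.1 and 0.126). *Sik2* was also not called without control library 5 (0.0522), and *Trib3* was called without *Tip60* cKO library 1 or control library 4 but not without any of the other libraries (0.0719 to 0.110). The histone acetyltransferases that bind phosphorylated CREB were at like rank scores in both genotypes, *Crebbp* at 96.9 ± 3.97 in controls and 96.7 ± 2.68 in *Tip60* cKO and *Ep300* at 99.8 ± 0.15 and 99.0 ± 1.10. *Eif2s1*, the initiation factor whose phosphorylation raises ATF4, had the most negative difference among those with a peak in at least 8 lists (83.5 ± 4.43 and 67.2 ± 37.7, limma adjusted p = 0.701, difference 0.50 without *Tip60* cKO library 5), and *Prkacb*, a catalytic subunit of protein kinase A, the most positive (89.8 ± 5.19 and 96.9 ± 2.24, 0.347).

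Of 34 known targets of CREB, CRTC or ATF4, 30 were tested and 1 was called in rank score (limma, against 0.235% of all genes), *Pdyn*, which encodes the opioid precursor prodynorphin. *Pdyn* had a TSS peak in 5 of 5 control and 0 of 5 *Tip60* cKO lists, with 70.2 ± 3.15 against 0 (limma adjusted p = 3.3e-08, exact permutation p = 0.00794). *Pdyn* entered the genes tested through the controls alone, where it is high, the 0 of all *Tip60* cKO lists leaves little spread for limma, and *Pdyn* was not called with a mean-dependent robust prior (0.086) or with the same number of peaks per library (0.505). In coverage 1 was called, against 1.56% of all genes, *Trib3*, which is in both lists and whose call is lost under the alternatives given above. At an unadjusted p below 0.05 there were 3 in rank score and 12 in coverage, against 11.8% and 23.2%, and the mean was lower in 22 and 25 of 30, against 55.6% and 81.1%. Both unadjusted counts include *Pdyn* and *Vgf*, which had a TSS peak in 0 *Tip60* cKO lists and in 5 and 4 control lists. They passed the filter of at least 2 lists only through controls, where they are high, so that these counts are a description. The most negative and most positive differences among targets with peaks in at least 8 lists were those of the granin *Scg2* (72.3 ± 2.53 in controls, 46.1 ± 42.3 in *Tip60* cKO, limma adjusted p = 0.585) and of the prohormone convertase *Pcsk1* (56.5 ± 31.6 and 74.5 ± 3.37, 0.606). The difference of *Scg2* was 5.20 in lane 7 and -73.2 in lane 8, and -14.6 without *Tip60* cKO library 4 or 5. That of *Pcsk1*, 17.98, was 5.26 in lane 7 and 37.1 in lane 8, and 3.86 without control library 4.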

How the data were processed

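H4K12ac ChIP-Seq of sorted hippocampal neuronal nuclei was compared between 5 *Tip60* cKO and 5 control mice. The authors mapped reads to mm10 with STAR, dropped duplicates with samtools, and ran MACS 2.1.0.20140616 on each library (q threshold 0.1) with the pooled input of its genotype. In the deposited lists the pileup is a coverage signal in fragments, fold enrichment is a ratio over the local input background, and the authors gave p-values and q-values as −log10. The authors' read-based differential binding was not repeated, as peak lists hold no counts.

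TSSs, transcripts and genes came from GENCODE M21 (GRCm38, the build of the lists). TSS rank score, TSS coverage, gene body coverage (genes over 4 kb), alternative TSSs (merged within 500 bp) and consensus regions (merged peaks in at least 2 lists, 144701 of 257154) were computed with Python 3.11.15, numpy 2.4.6 and pandas 2.3.3, and a peak counted with at least 1 base of overlap. They were tested with limma 3.58.1 in R 4.3.3 (Benjamini-Hochberg over all features, threshold 0.05) and with two-sided exact permutation tests (252 assignments). The limma step was tested on simulated data. The local background was derived from pileup and fold enrichment. Sequences were read from RefSeq tables and the GRCm38.p6 genome with pysam 0.24.0.

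Members and gene lists were chosen with earlier results of these data known. Named were all 9 members, the called list genes and, among list genes with a peak in 8 or more lists, those with the most negative and most positive difference. Also named were the 3 regions with the smallest p and the region of each member with the highest control mean. The 3 genes most like the member with the smallest p were named as well. Regions without overlap, the *Atf2* flank and intronic region, *Crebbp*, *Ep300*, *Vgf* and *Creb3l2* were named after their values were seen. Between 22864189 and 37923809 tags per library set the depth. A place without a peak was below the threshold of its library, and precision is given by the spread over 5 mice. Alternatives were peaks with q below 0.01, the 64245 strongest peaks of each library, windows of 1 kb, pileup ranks, relative fold enrichment, stricter filters, other priors, the replicate block, the lane and each library left out. Scaling of coverage to the library mean was added after seeing the data.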

Additional observations from a re-analysis of the deposited data

Results flagged for a closer look

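In groups of 5 mice, a library was singled out when its gap to the nearest other exceeded 0.71 of the range of its group. Of 43 groups with any spread in the members' TSS rank scores, TSS coverage and gene body coverage, 6 met this, and chance gives about 1 in 20. In rank score these were *Crem* in *Tip60* cKO library 3 (0, no peak), *Crtc2* in *Tip60* cKO library 2 (86.0, the highest of its group), *Crtc3* in *Tip60* cKO library 1 (94.8, the lowest) and *Crtc3* in control library 5 (84.3, the lowest). In TSS coverage it was *Creb1* in control library 5 (50.3%, the highest), and in gene body coverage *Crtc3* in control library 4 (5.05%, the lowest). Control library 4 had the fewest peaks of the controls.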

How the results depend on the processing

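Peak lists show where signal passed a threshold and not how much lies below it, and rank scores near 100 leave little room to rise. Coverage follows the number and length of the peaks of a library, and its relation to depth was not tested. No member was called in TSS rank score, gene body coverage or at an alternative TSS under any alternative that gave a value. For TSS coverage the count of called members was 1 and became 0 with 1-kb windows, in lane 7 alone, in lane 8 alone, with the replicate block and with scaling to the library mean, and 0 to 1 with a library left out. For consensus regions the count was 0 and became 1 with regions in at least 5 lists (a *Crtc3* region that passes this filter through its *Tip60* cKO peaks) and 1 with the same number of peaks, and 0 to 2 with a library left out. The cause was not tested.

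Same-numbered mice are different animals. The correlations between them were -0.0375 to 0.0552 in TSS rank score, -0.151 to 0.135 in TSS coverage and -0.240 to 0.249 in gene body coverage. In TSS rank score *Tip60* cKO libraries 1, 2 and 4 were closest to the control of their own number, and libraries 3 and 5 were not. The paper used littermates as controls, and the numbers follow the lanes. Whether the numbers pair mice by litter or processing cannot be told from these values. With the number as a replicate block, called genes went from 339 to 0 in TSS coverage (members 1 to 0), from 51 to 35 in TSS rank score (members 0), from 45 to 0 in gene bodies and from 812 to 261 regions. Counts over all features also differed by over 1.5 times in lane 7 (232) and lane 8 (931) alone, with trend and robust priors (86) and the exact test (0, since its lowest p did not pass after adjustment) for rank score, with the lane as a term (653), lanes alone (0), the same number of peaks (734) and scaling (109) for coverage, and with the same number of peaks (112) for gene bodies. With a library left out they were 56 to 97, 38 to 1388, 0 to 252, 42 to 67 (main 30, alternative TSSs) and 916 to 1401. A fit over all annotated genes gave no usable value, since most of the genes have no peak in any list.

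Differences that changed sign had unadjusted p of 0.196 or above where they did so. Rank scores did so for *Crtc1* (1-kb window 0.0083, lane 7 alone 0.58, a library left out -0.68 to 0.90), *Crtc3* (lane 7 alone -1.41, relative fold enrichment -0.068 on the log2 scale, a library left out -1.12 to 2.74), *Crem* (a library left out -19.9 to 0.74), *Atf4* (pileup 0.74), *Eif2s1* (lane 7 alone 1.11, a library left out -21.4 to 0.50) and *Scg2* (lane 7 alone 5.20). In lane 8 alone, with 2 mice per genotype, *Atf6* (-78.4) and *Scg2* (-73.2) were called. No *Tip60* cKO list of that lane had a peak at either gene, and the zeros leave little spread for limma. Coverage changed sign for *Atf1* (1.38) and *Crem* (1.62) after scaling and for *Crem* with a library left out (-4.19 to 1.33). Gene body coverage did so with the same number of peaks for *Atf2* (0.0383), *Crtc1* (1.04) and *Atf1* (-0.47), and with a library left out for *Crtc1* (-2.99 to 3.19), *Crtc3* (-2.001 to 0.0379) and *Atf1* (-0.25 to 0.46). Under alternatives other than leaving out a library, 298 values kept direction and side of the threshold and 12 changed direction. The others changed in a call or a count (20 moved, 15 weaker and 4 stronger). With a library left out, 410 values kept both, 20 changed direction, and the others changed in a call or a count (36 moved, 12 weaker and 2 stronger).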
